A study of Mus musculus with 6 samples.

Results

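Notch1, Notch4, Dll4, Jag1, Jag2, Hey1, Hey2, Gja4, Gja5 and Sox17 are genes of Notch signalling and of arterial endothelium, the lining of arteries. These 10 genes were taken by name from the 49315 genes of the count table, by a rule that names genes and no values, although earlier results of these data were known when the list was drawn up. RNA was sequenced from lung cells of C57BL/6 mice that received saline (sham) or bleomycin sulfate (BLM) by oropharyngeal instillation, with lungs taken 21 days later; bleomycin is a DNA-damaging drug used to bring about lung fibrosis in mice. In each treatment there was an unsorted library, a library of cells depleted of surface Lamp1 and a library of cells enriched for it, Lamp1 being a lysosomal membrane protein that can also appear at the cell surface. Each of the 6 conditions was 1 library. The methods describe pooling 2 to 3 lungs of mice of the same group per tube, so animals cannot be separated. The methods also name male mice of the J substrain for the fibrosis model, and the age of the sequenced mice is not given in the sources used here.

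Notch receptors are cleaved when a ligand on a neighbouring cell pulls on them, and the freed intracellular part enters the nucleus and joins the DNA-binding protein Rbpj to switch on targets such as the Hey and Hes repressors. In growing vessels Dll4, Notch1 and Notch4 in endothelial cells set the arterial identity, and Sox17 acts with them. Gja4 and Gja5 encode connexins 37 and 40, gap junction channels of arterial endothelium. In the adult lung the same genes are also used by other endothelial cells.

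The genes below differed in level, in the sort and in the response to BLM, and the DNA just before their start sites is shown for 5 of them with the short letters known to be bound by Rbpj, by ETS factors such as Erg and by SOX factors. The windows are the 250 bases before the RefSeq start (GRCm38.p6), 5′ to 3′ on the strand of the gene, and capitals mark every match on either strand to TGGGAA (Rbpj), CAGGAA (ETS) or ACAAT (SOX). Notch4 is shown as the window with the most matches, Hey2 as the only one with an Rbpj match, Gja4 as an ETS and SOX match in the gene that differed most in the sort, and Dll4 and Gja5 as windows without a match in genes with opposite responses to BLM.
Notch4: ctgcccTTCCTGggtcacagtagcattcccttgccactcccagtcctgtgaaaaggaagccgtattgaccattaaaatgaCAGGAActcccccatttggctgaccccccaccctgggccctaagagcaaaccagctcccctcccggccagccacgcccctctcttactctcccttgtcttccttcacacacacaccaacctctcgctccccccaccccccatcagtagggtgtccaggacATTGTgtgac
Dll4: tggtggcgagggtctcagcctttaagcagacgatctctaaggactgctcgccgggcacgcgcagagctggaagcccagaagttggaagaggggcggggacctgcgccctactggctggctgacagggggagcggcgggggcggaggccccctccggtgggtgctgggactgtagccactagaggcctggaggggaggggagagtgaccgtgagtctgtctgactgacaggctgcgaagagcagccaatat
Hey2: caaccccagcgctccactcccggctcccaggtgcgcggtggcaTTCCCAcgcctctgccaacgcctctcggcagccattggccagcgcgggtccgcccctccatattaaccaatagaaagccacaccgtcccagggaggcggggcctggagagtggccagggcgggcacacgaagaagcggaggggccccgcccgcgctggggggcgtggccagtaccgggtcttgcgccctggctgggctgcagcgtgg
Gja4: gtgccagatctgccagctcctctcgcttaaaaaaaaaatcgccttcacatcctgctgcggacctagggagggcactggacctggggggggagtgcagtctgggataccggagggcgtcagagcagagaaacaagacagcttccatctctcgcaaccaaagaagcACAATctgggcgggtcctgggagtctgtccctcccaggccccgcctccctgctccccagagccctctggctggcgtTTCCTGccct
Gja5: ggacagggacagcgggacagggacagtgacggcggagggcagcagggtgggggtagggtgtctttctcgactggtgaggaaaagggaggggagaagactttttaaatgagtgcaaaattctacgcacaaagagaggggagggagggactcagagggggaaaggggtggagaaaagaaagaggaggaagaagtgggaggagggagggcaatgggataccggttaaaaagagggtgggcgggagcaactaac
RefSeq windows were matched for 8 of the 10 genes, Hey1 and Sox17 being the others. Of the 8 windows, 5 held at least 1 match and 3 (Dll4, Jag2 and Gja5) held none of the 3 motifs. Notch1 held CAGGAA and Jag1 held ACAAT. Over 32851 mouse promoter windows of the same length, TGGGAA was present in 21.6%, CAGGAA in 25.7% and ACAAT in 27.7%. A match describes the letters only.

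The windows shown lie at chr17:34564045-34564294 for Notch4, chr2:119325534-119325783 for Dll4, chr10:30842784-30843033 for Hey2, chr4:127314040-127314289 for Gja4 and chr3:97032152-97032401 for Gja5. Notch4, Dll4 and Gja5 are on the plus strand, and Hey2 and Gja4 are on the minus strand.

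Counted reads per library ranged from 30236120 to 52918696. The BLM Lamp1-depleted library stood apart, with 38.4% of its reads on Gm26917, an abundant noncoding RNA gene, against at most 7.10% elsewhere. That left 18636423 reads for all other genes there and a TMM scaling factor of 0.699, against 0.993 to 1.19 in the other 5 libraries. Levels below are scaled CPM (reads relative to the TMM-scaled library total) unless they are given per length (RPKM, the same divided by kilobases of exon). A log2 ratio compares 2 libraries, its 95% interval covers counting error only, and no spread between mice can be given. In these mixed cells, fewer cells of a type and less RNA per cell cannot be told apart.

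Notch1 (ENSMUSG00000026923, chromosome 2, 26457903 to 26516663, minus strand, GRCm38) is the main endothelial receptor, but leukocytes use it too. Its scaled level was 349 CPM in sham unsorted, 151 in sham Lamp1-depleted and 539 in sham Lamp1-enriched cells, and 261, 142 and 555 CPM in the BLM libraries in the same order. The Lamp1-enriched libraries were highest and the Lamp1-depleted libraries lowest, with the smallest sort difference of the 10 genes. The log2 ratio of enriched over depleted cells was 1.84 in sham (95% counting interval 1.80 to 1.88) and 1.96 in BLM (1.91 to 2.02). Notch4 (ENSMUSG00000015468, chromosome 17, 34564268 to 34588503, plus strand) is a receptor largely restricted to endothelium. Notch4 stood at 223, 51.8 and 341 CPM in sham unsorted, depleted and enriched cells and at 133, 45.4 and 351 CPM in BLM cells. It was again highest in the enriched libraries, with a log2 ratio over depleted cells of 2.72 in sham (2.66 to 2.78) and 2.95 in BLM (2.85 to 3.04). The receptors did not keep 1 ratio across the sort. Notch1 had 1.56 and 1.58 reads per Notch4 read in sham unsorted and enriched cells but 2.91 in sham depleted cells, and 1.97, 1.58 and 3.13 in BLM unsorted, enriched and depleted cells.

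Dll4 (ENSMUSG00000027314, chromosome 2, 119325784 to 119335962, plus strand), the Delta-type ligand of arterial and sprouting endothelial cells, was at 123.5 CPM in sham unsorted, 26.3 in sham Lamp1-depleted and 190.3 in sham Lamp1-enriched cells. In BLM cells Dll4 was at 53.1, 10.4 and 139 CPM. Each BLM library was below its sham counterpart. The log2 ratio of BLM over sham was -1.22 in unsorted (-1.29 to -1.15), -1.34 in depleted (-1.56 to -1.13) and -0.46 in enriched cells (-0.50 to -0.41). Jag1 (ENSMUSG00000027276, chromosome 2, 137081456 to 137116644, minus strand), a Jagged-type ligand of endothelium and smooth muscle, was at 55.5, 12.5 and 83.8 CPM in sham unsorted, depleted and enriched cells. Jag1 in BLM cells was at 46.0, 10.2 and 70.0 CPM, with log2 ratios over sham of -0.27 in unsorted, -0.29 in depleted and -0.26 in enriched cells. Dll4 and Jag1 were the 2 genes whose counting intervals lay below 0 in all 3 kinds of library.

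Jag2 (ENSMUSG00000002799, chromosome 12, 112907819 to 112929776, minus strand) is the other Jagged-type ligand, found in arterial endothelium and in airway epithelium. It stood at 37.9, 6.82 and 46.2 CPM in sham unsorted, depleted and enriched cells and at 51.3, 16.6 and 109 CPM in BLM cells. Every BLM library was above its sham counterpart, by a log2 ratio of 0.43 in unsorted (0.34 to 0.53), 1.28 in depleted (1.06 to 1.51) and 1.24 in enriched cells (1.17 to 1.31). The balance of the Jagged ligands turned with treatment. There were 0.684, 0.547 and 0.552 reads of Jag2 per read of Jag1 in sham unsorted, depleted and enriched cells, and 1.12, 1.62 and 1.56 in BLM cells.

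Hey1 (ENSMUSG00000040289, chromosome 3, 8663359 to 8667256, minus strand) is a transcriptional repressor and a direct Notch target. Its level was 63.3, 10.4 and 116 CPM in sham unsorted, depleted and enriched cells, and 31.0, 10.1 and 97.2 CPM in BLM cells. Enriched cells were far above depleted cells in both treatments, with log2 ratios of 3.48 in sham (3.34 to 3.62) and 3.27 in BLM (3.07 to 3.47). BLM unsorted cells were below sham unsorted cells by a log2 ratio of -1.03 (-1.12 to -0.93), while enriched cells differed by -0.26 and depleted cells by -0.05, an interval from -0.29 to 0.19 that holds 0. Hey2 (ENSMUSG00000019789, chromosome 10, 30832359 to 30842801, minus strand), its close relative, was scarce. It had 124, 26 and 153 reads in sham unsorted, depleted and enriched cells and 46, 8 and 158 reads in BLM cells. Its ratio of BLM over sham was -1.12 in unsorted cells (-1.65 to -0.63) and -0.20 in enriched cells (-0.53 to 0.13), and at 8 reads in BLM depleted cells the depth sets wide limits on any ratio, as for depleted cells of BLM over sham (-1.94 to 0.59).

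Gja4 (ENSMUSG00000050234, chromosome 4, 127311421 to 127314039, minus strand), connexin 37, was at 67.7, 10.8 and 126 CPM in sham unsorted, depleted and enriched cells and at 79.0, 13.1 and 302 CPM in BLM cells. The BLM Lamp1-enriched library held the highest level of all 6. Gja4 had the largest enriched over depleted ratio of the 10 genes in each treatment, at 3.55 in sham (3.42 to 3.69) and 4.53 in BLM (4.36 to 4.71), the latter a 23.1-fold difference. Gja5 (ENSMUSG00000057123, chromosome 3, 96904693 to 97077416, plus strand), connexin 40, was at 20.8, 4.43 and 32.6 CPM in sham cells and at 29.2, 5.59 and 103 CPM in BLM cells, in the same order. Its BLM over sham ratio was 0.49 in unsorted cells (0.36 to 0.61), 0.33 in depleted cells (-0.01 to 0.67) and 1.66 in enriched cells (1.58 to 1.75). In enriched cells Gja5 was 3.17-fold and Gja4 2.39-fold higher in BLM than in sham. The body of Gja5 overlaps Gpr89 on the opposite strand, which had 332 to 1588 reads per library, and the strand setting of the counting is not given in the sources used here.

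Sox17 (ENSMUSG00000025902, chromosome 1, 4490931 to 4497354, minus strand), a transcription factor needed for arterial identity, was at 120.3, 20.3 and 169 CPM in sham unsorted, depleted and enriched cells and at 102, 17.2 and 275 CPM in BLM cells. It was lower in BLM than in sham in unsorted and depleted cells and higher in enriched cells. The log2 ratios were -0.24 in unsorted (-0.30 to -0.18), -0.24 in depleted (-0.42 to -0.06) and 0.70 in enriched cells (0.66 to 0.74). A noncoding transcript on the opposite strand of Sox17, Gm37587, had 15 to 362 reads per library.

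**Figure D1:**
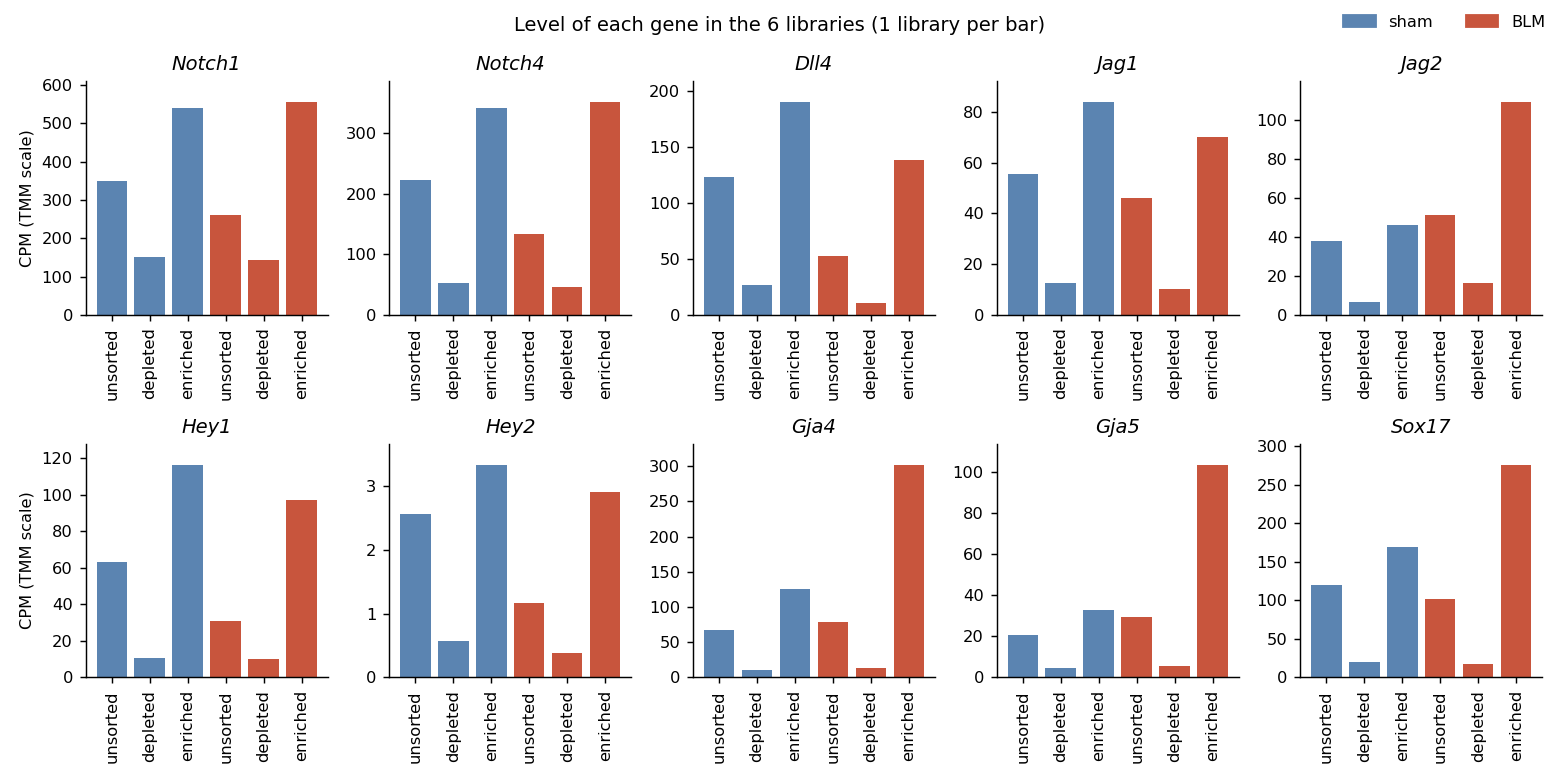
Scaled level in CPM of each of the 10 genes, with 1 value for each of the 6 libraries. No error bars are drawn since each condition was 1 library. The Lamp1-depleted libraries are lowest and the Lamp1-enriched libraries highest for every gene in both treatments. Gja4 lies between 10.8 and 302 CPM and Hey2 between 0.379 and 3.33 CPM.

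Compared per length, the 10 genes spanned a wide range. In sham unsorted cells Gja4 led at 40.2 RPKM, followed by Dll4 at 32.1, Notch4 at 27.7, Sox17 at 25.2, Notch1 at 24.6, Hey1 at 19.4, Jag1 at 9.52, Jag2 at 5.44, Gja5 at 3.62 and Hey2 at 0.556 RPKM. Sox17 and Notch1 were the neighbours that counting error did not separate there. The order differed in BLM. In BLM unsorted cells the top was Gja4 at 46.9 RPKM, then Sox17 at 21.3, Notch1 at 18.4, Notch4 at 16.5 and Dll4 at 13.8, with no neighbours inside counting error. In BLM enriched cells Gja4 reached 179 RPKM, Sox17 57.7, Notch4 43.5, Notch1 39.0 and Dll4 36.0, and Gja5 at 18.0 and Jag2 at 15.7 stood above Jag1. Dll4 thus went from rank 2 in all 3 sham libraries to rank 5 in BLM unsorted and enriched cells and rank 6 in BLM depleted cells. Notch1 ranked 1 in both Lamp1-depleted libraries, at 10.6 RPKM in sham and 9.99 in BLM. Neighbours within counting error numbered 2 of 9 in sham depleted, 1 of 9 in sham enriched and 3 of 9 in BLM depleted cells, and Hey2 was last in every library.

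The comparison of Lamp1-enriched with Lamp1-depleted cells asks which cells carry Lamp1 at their surface. All 10 genes were at least 2-fold higher in enriched cells in sham lungs, where 27.5% of all genes tested were, and all 10 in BLM lungs, where 34.4% were. None was at least 2-fold lower, where 25.2% of all genes were in sham and 22.6% in BLM. The log2 ratios ran from 1.84 (Notch1) to 3.55 (Gja4) in sham, with a median of 2.81, and from 1.96 (Notch1) to 4.53 (Gja4) in BLM, with a median of 3.11. The medians of all genes tested were -0.01 and 0.29. In a fit over the 4 sorted libraries that took treatment as a block (edgeR quasi-likelihood test, Benjamini-Hochberg adjusted over 20593 genes), all 10 were called higher, where 21.5% of all genes were, 19.2% were lower and 40.7% were called either way. The log2 fold changes in that fit were 1.81 for Notch1 (approximate SE 0.395), 2.74 for Notch4, 3.20 for Dll4, 2.66 for Jag1 and 2.64 for Jag2. They were 3.28 for Hey1, 2.62 for Hey2 (approximate SE 0.679), 3.94 for Gja4 (approximate SE 0.393), 3.44 for Gja5 and 3.43 for Sox17. The largest edgeR adjusted p among them was 0.000526, for Hey2. The fit has 1 residual degree of freedom, so its spread is pooled across genes, and sham and BLM stand in for replicates. With total counts as the only scaling, 9 of the 10 were called, where 21.5% of all genes were called either way. Notch1 was the exception, with an edgeR adjusted p of 0.0741. A fit without the BLM Lamp1-depleted library took in the unsorted libraries and left 1 depleted library, so its calls are not given.

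**Figure D2:**
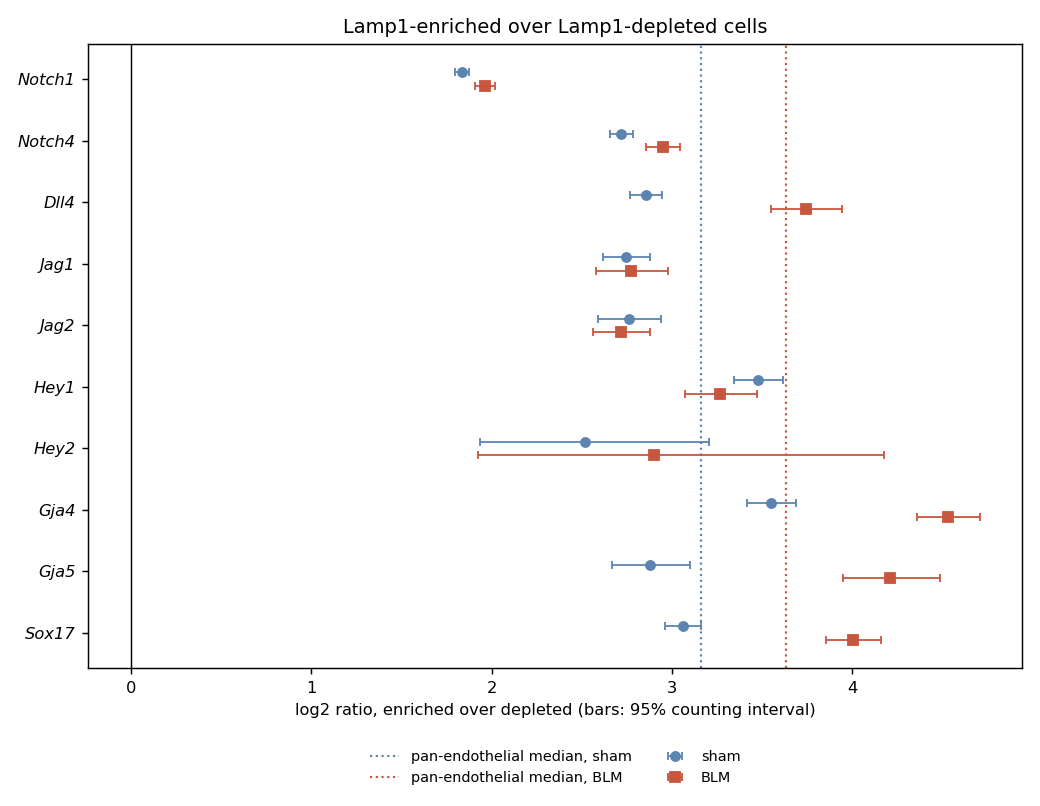
Log2 ratio of Lamp1-enriched over Lamp1-depleted cells for each gene in sham and BLM lungs, with bars for the 95% counting interval and dotted lines at the median of 16 pan-endothelial genes (3.16 in sham, 3.63 in BLM). Every point lies above 0, Notch1 is leftmost, and Dll4, Gja4, Gja5 and Sox17 lie further right in BLM than in sham.

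Genes active in all endothelial cells were sorted in the same way. The 16 pan-endothelial genes, such as Pecam1, Cdh5, Tek and Tie1, had medians of 3.16 (sham) and 3.63 (BLM), and all 16 were called higher in the fit. Against those medians, Hey1 and Gja4 were above in sham, and Dll4, Gja4, Gja5 and Sox17 were above in BLM. The 16 genes ran from 2.25 to 3.72 in sham and from 2.56 to 4.23 in BLM. Gja4 in BLM, at 4.53, was the only value of the 10 genes above that range. Notch1 lay furthest below, by 1.32 in sham and 1.67 in BLM on the log2 scale. Leukocyte genes went the other way, with 10 of 12 lower, 0 higher and a median log2 ratio of enriched over depleted of -3.56 (sham) and -2.92 (BLM). Their part in the level of Notch1 in depleted cells was not tested. With Pecam1 alone as the reference, 9 of the 10 genes lay above it in each treatment.

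The sort ratio itself differed between treatments for some genes. BLM minus sham was 1.33 for Gja5 (counting SE 0.172), 0.98 for Gja4 (0.111), 0.94 for Sox17 (0.0916) and 0.88 for Dll4 (0.108) on the log2 scale. The other differences were 0.13 for Notch1, 0.23 for Notch4, 0.03 for Jag1, -0.04 for Jag2, -0.21 for Hey1 and 0.38 for Hey2. Relative to the pan-endothelial median the genes went both ways, with Gja5 at 0.86, Gja4 at 0.51, Sox17 at 0.47 and Dll4 at 0.41, and Hey1 at -0.68, Jag2 at -0.51, Jag1 at -0.44, Notch1 at -0.34, Notch4 at -0.24 and Hey2 at -0.09. The 16 pan-endothelial genes themselves ran from -0.40 (Cldn5) to 0.49 (Ptprb) on this relative scale. Gja5 and Gja4 lay above that range, the latter narrowly, and Hey1, Jag2 and Jag1 lay below it. Sox17, Dll4, Notch1, Notch4 and Hey2 lay inside it. The BLM Lamp1-depleted library enters each of these differences. With 1 library per condition, the difference between treatments was not tested beyond counting error.

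Unsorted cells lay between the depleted and the enriched library for all 10 genes in both treatments. In sham, none of the 10 was 2-fold apart between enriched and unsorted cells, where 2.55% of all genes were at least 2-fold higher and 15.8% lower. Their log2 ratios ran from 0.29 (Jag2) to 0.90 (Gja4), with a median of 0.62. In BLM, 9 of the 10 were at least 2-fold higher in enriched than in unsorted cells, where 12.6% of all genes were and 19.1% were at least 2-fold lower, and Jag1 at 0.61 was the exception. The ratios were 1.93 for Gja4, 1.82 for Gja5, 1.65 for Hey1 and 1.09 for both Notch1 and Jag2. The pan-endothelial medians were 0.68 in sham and 1.44 in BLM. Depleted cells were at least 2-fold below unsorted cells for all 10 genes in sham, where 30.4% of all genes were and 18.3% were higher, and for 9 in BLM, where 33.6% were and 16.9% were higher. Notch1 was the exception in BLM, at -0.88.

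The comparison of BLM with sham lungs asks what the injury changes. In unsorted cells, Dll4, Hey1 and Hey2 were at least 2-fold lower in BLM, 3 of the 10 genes where 16% of all genes were. No gene of the 10 was 2-fold higher, where 13.9% of all genes were. Jag2 (0.43), Gja5 (0.49) and Gja4 (0.22) were above 0, and Notch4 (-0.75), Notch1 (-0.42), Jag1 (-0.27) and Sox17 (-0.24) below. The Gja4 ratio became -0.04 with total counts as the only scaling. The summed level of the 10 genes was 1064 CPM in sham and 786 CPM in BLM unsorted cells, that of the 16 pan-endothelial genes 10172 and 5403 CPM, and that of 12 leukocyte genes 2582 and 18231 CPM. Of the leukocyte sum, Lyz2, a lysozyme of macrophages and other myeloid cells, made up 1995 and 17243 CPM, and the 12 genes had a median log2 ratio of 0.52, with 4 below 0. The share of cells of each type was not measured, and its part in these ratios was not tested.

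In Lamp1-enriched cells, Jag2, Gja4 and Gja5 were at least 2-fold higher in BLM, 3 of the 10 genes where 10.2% of all genes were. None was 2-fold lower, where 7.81% of all genes were. The lowest was Dll4 at -0.46, and Notch1 and Notch4 both stood at 0.04, near the median of all genes tested (-0.00026). The pan-endothelial genes in these cells had a median of -0.07 and ran from -0.64 to 0.38, so that Jag2, Gja4, Gja5 and Sox17 lay above every one of the 16. In Lamp1-depleted cells, Jag2 was at least 2-fold higher, where 13.7% of all genes were, and Dll4 at least 2-fold lower, where 22.3% were. Those depleted values rest on the library with 38.4% of its reads on 1 gene, and the ratios of Gja4 (0.28) and Gja5 (0.33) there became -0.44 and -0.38 with total counts as the only scaling.

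**Figure D3:**
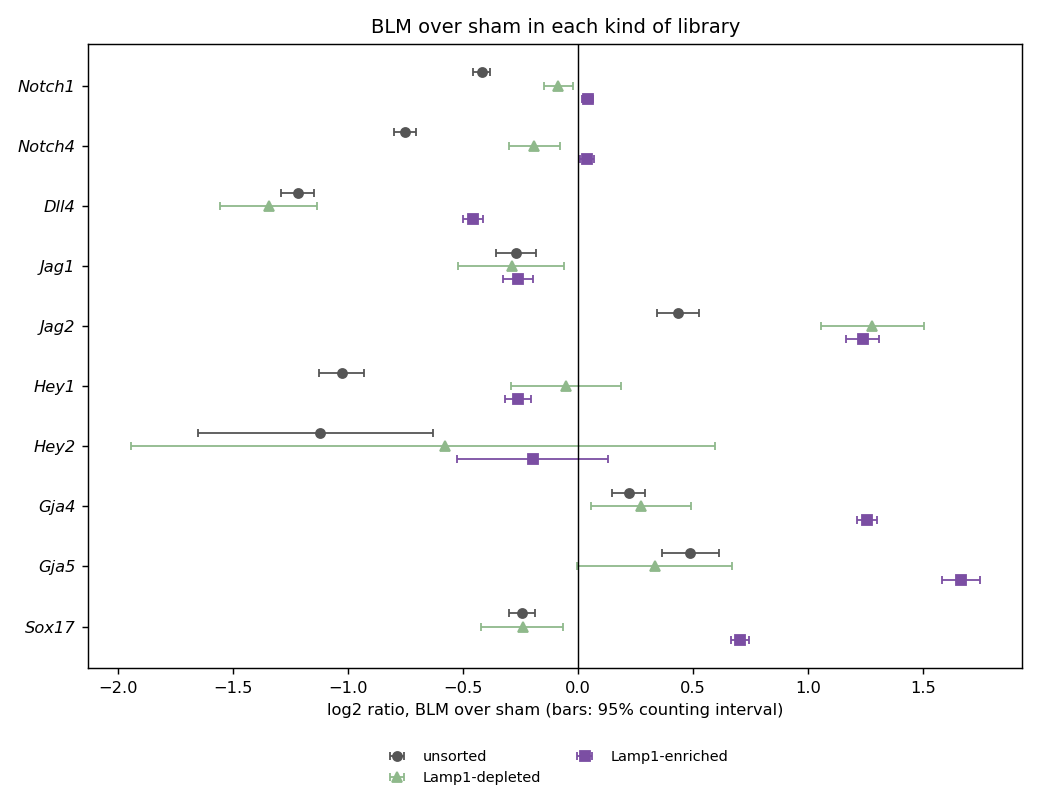
Log2 ratio of BLM over sham for each gene in unsorted, Lamp1-depleted and Lamp1-enriched cells, with bars for the 95% counting interval. Jag2, Gja4 and Gja5 lie at 1.24 to 1.66 in enriched cells, Dll4 lies below 0 in all 3 kinds of library, and the bars are widest for Hey2.

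Set against the pan-endothelial genes in the same libraries, the 10 genes spread from above to below the endothelial scale. The pan-endothelial median of BLM over sham was -1.01 in unsorted and -0.07 in enriched cells. Relative to it, Gja5 stood at 1.5 and 1.73, Jag2 at 1.45 and 1.30, Gja4 at 1.23 and 1.32 and Sox17 at 0.77 and 0.77, in unsorted and enriched cells. These 4 genes were above the endothelial scale by similar amounts in both. Notch1 stood at 0.59 and 0.11, Notch4 at 0.26 and 0.11 and Jag1 at 0.74 and -0.19. Dll4 at -0.21 and -0.39, Hey1 at -0.02 and -0.19 and Hey2 at -0.11 and -0.13 were at or below it. The unsorted and enriched comparisons use different libraries.

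**Figure D4:**
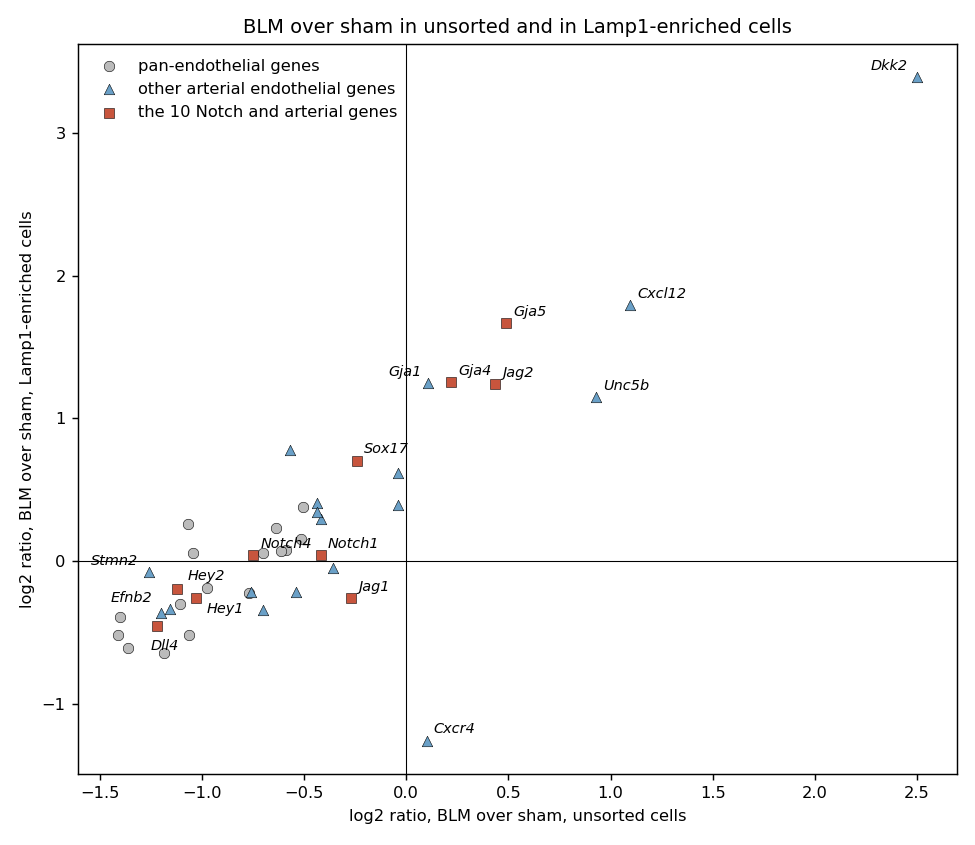
Log2 ratio of BLM over sham in unsorted cells (horizontal) and in Lamp1-enriched cells (vertical), 1 point per gene, for the 10 genes (red), 18 other arterial genes (blue) and 16 pan-endothelial genes (grey). Gja4, Gja5 and Jag2 lie to the upper right with Gja1, Unc5b, Cxcl12 and Dkk2, while Dll4, Hey1, Hey2, Efnb2 and Stmn2 lie among the grey points.

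Read ratios within a library do not depend on scaling between libraries. Dll4 was taken as the common denominator after its values, lower in BLM in each kind of library, were seen, so the ratios hold that difference too. Gja5 had 0.169, 0.169 and 0.171 reads per Dll4 read in sham unsorted, depleted and enriched cells, a ratio that the sort left in place. In BLM cells it was 0.550 in unsorted (95% counting interval 0.512 to 0.591), 0.539 in depleted (0.427 to 0.677) and 0.746 in enriched cells (0.720 to 0.772). Gja4 per Dll4 went from 0.549, 0.411 and 0.664 in sham to 1.49, 1.26 and 2.18 in BLM. Sox17 per Dll4 went from 0.974, 0.773 and 0.890 to 1.91, 1.66 and 1.99, and Jag2 per Dll4 from 0.307, 0.260 and 0.243 to 0.966, 1.60 and 0.787. For these 4 genes each BLM value was above every sham value. Set against Cdh5, a gene of all endothelial cells, Dll4 itself was at 0.0885, 0.0830 and 0.0766 reads per read in sham unsorted, depleted and enriched cells and at 0.0544, 0.0491 and 0.0501 in BLM cells. Gja5 per Cdh5 was 0.0149, 0.0140 and 0.0131 in sham and 0.0299, 0.0265 and 0.0374 in BLM, a smaller step than per Dll4. Hey1 per Dll4 was 0.512, 0.397 and 0.612 in sham and 0.585, 0.973 and 0.701 in BLM, so that its sham and BLM values overlapped. Jag1 per Dll4 was 0.449, 0.475 and 0.440 in sham and 0.866, 0.986 and 0.504 in BLM, and its intervals in sham depleted cells (0.429 to 0.525) and BLM enriched cells (0.485 to 0.525) overlapped.

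**Figure D5:**
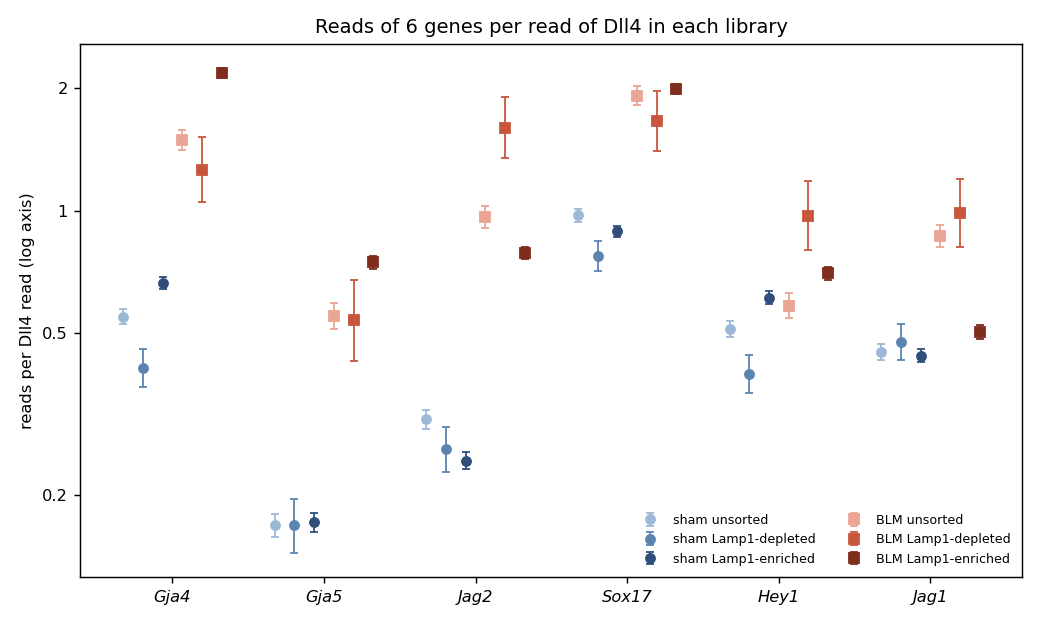
Reads of 6 genes per read of Dll4 in each library, on a log axis, with bars for the 95% counting interval. For Gja4, Gja5, Jag2 and Sox17 the squares (BLM) stand clear above the circles (sham), as for Gja5 at 0.539 to 0.746 against 0.169 to 0.171, while Hey1 has 1 BLM value among its sham values.

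The other Notch receptors and ligands did not follow 1 pattern. Notch2, a receptor of leukocytes, smooth muscle and many other cells, was at 178, 621 and 118 CPM in sham unsorted, depleted and enriched cells and at 356, 530.3 and 103 CPM in BLM cells. It was the 1 receptor lower in enriched than in depleted cells, with log2 ratios of -2.40 and -2.36 in sham and BLM. Notch3, a receptor of pericytes and vascular smooth muscle, was at 85.7, 13.3 and 94.1 CPM in sham cells and at 24.0, 7.95 and 36.0 CPM in BLM cells. Notch3 was lower in BLM in each kind of library, by log2 ratios of -1.84 in unsorted, -0.74 in depleted and -1.39 in enriched cells. The 10 smooth muscle and pericyte genes divided in BLM over sham unsorted cells, with a median of -0.84, 6 below 0 (Pdgfrb at -1.37, Des at -1.44 and Myh11 at -1.43 among them) and 4 above 0, from Actg2 at 0.24 to Cspg4 at 2.15. Dll1, a second Delta-type ligand, had log2 ratios of enriched over depleted cells of 2.82 and 3.02, and of BLM over sham of -0.23 in unsorted and 0.55 in enriched cells. In the edgeR fit Notch3 and Dll1 were called higher in enriched cells and Notch2 lower, while Dlk2 was not called (0 to 17 reads per library). Dll3 and Dlk1 had at most 11 and 4 reads in any library.

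Of 26 genes that process or carry Notch proteins, 8 were called higher in enriched cells, 2 lower and 16 neither in the edgeR fit, where 21.5% of all genes were higher and 19.2% lower. The 8 were Adam10, Aph1a, Aph1b, Mib1, Neurl1a, Neurl1b, Numb and Numbl, of which Adam10 cuts the receptor, Aph1a and Aph1b belong to the gamma-secretase complex, Mib1 and the Neurl proteins help ligands to be taken up, and Numb proteins restrain Notch. Their log2 fold changes ran from 0.92 (Adam10) to 2.49 (Neurl1b). Dtx1, an E3 ligase regulator of Notch that lymphocytes express, fell the most, at -4.78, and Psen2, a gamma-secretase subunit, was at -1.45. Furin, which cleaves the precursor, had the largest BLM over sham ratio of this group in unsorted cells, at 1.82, and 0.95 in enriched cells, with Psen2 next in unsorted cells at 1.58. Mfng, a sugar transferase that modifies the receptor, was lowest there at -0.98, followed by Numb at -0.61.

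Of 10 genes for nuclear partners and targets of Notch, 3 were called higher in enriched cells, 0 lower and 7 neither, beside the same shares of all genes (21.5% and 19.2%). The 3 were Heyl, Hes1 and Nrarp, targets of the pathway, with edgeR log2 fold changes of 2.43, 1.95 and 1.45. In BLM over sham unsorted cells Hes1 (-1.29) and Nrarp (-1.17) had the lowest ratios of this group, beside Hey1 (-1.03) and Hey2 (-1.12). In enriched cells the targets stood at -0.58 (Hes1), -0.17 (Nrarp), -0.26 (Hey1), -0.20 (Hey2) and -0.11 (Heyl). The 16 pan-endothelial genes ran from -1.41 to -0.50 in unsorted cells (median -1.01) and from -0.64 to 0.38 in enriched cells. Each of these target values lay inside those ranges. The DNA-binding partner Rbpj was at 84.8, 88.7 and 92.7 CPM in sham unsorted, depleted and enriched cells and at 138, 54.7 and 91.3 CPM in BLM cells, with a log2 ratio of BLM over sham of 0.70 in unsorted and -0.02 in enriched cells. The co-activators Maml1 and Maml3 and the co-repressor Spen had fitted log2 fold changes of -0.01, -0.17 and -0.48 in the sort, none of them called.

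Other arterial genes were sorted like the 10. Of the 17 that entered the edgeR fit, 16 were called higher in enriched cells and 1, Cxcr4, lower; Cxcr4 encodes a chemokine receptor that leukocytes also use. The largest log2 fold changes were those of Edn1, which encodes endothelin 1 (3.85), Vegfc, a growth factor (3.82), and Sox7, a relative of Sox17 (3.66). Bmx, a kinase, at 1.35 and Mgp, a matrix protein, at 2.26 had smaller ones. With BLM this group divided. In unsorted cells Efnb2, the ephrin ligand that marks arteries, and Stmn2 were lowest at -1.20 and -1.26, while Dkk2 and Cxcl12 were highest at 2.5 and 1.09. In enriched cells Efnb2 was at -0.36, Cxcl12 at 1.79, Gja1 (connexin 43) at 1.24 and Unc5b, a guidance receptor, at 1.15. Cxcl12, the ligand of Cxcr4, was at 524 CPM in the sham and 1816 CPM in the BLM enriched library. Dkk2 rests on 13 and 62 reads in sham and BLM unsorted cells and on 7 and 93 in enriched cells. Of the 18 genes of this group, 4 were at least 2-fold higher in BLM enriched cells and 1 lower, where 10.2% and 7.81% of all genes were, with a median of 0.32.

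Over the 6 libraries the profiles of the 10 genes were compared by the root-mean-square distance of centred log2 levels. Notch4 and Hey2 were closest, at 0.184 on the log2 scale, then Notch4 and Jag1 at 0.242, Gja4 and Gja5 at 0.249 and Notch4 and Hey1 at 0.253. The comparison took in 17935 genes, the 10 among them. Outside the 10, the nearest to their mean were Ackr2 (0.0369), Sema3f (0.0516), Lamb2 (0.0722), Trim2 (0.0731), Adgrl2 (0.0852), Nova2 (0.0931), Bcam (0.0958) and Sema3g (0.0981). The nearest to each gene were Zfp41 for Notch1, Sall2 for Notch4, Casc4 for Dll4, Flt4 for Jag1, Rin1 for Jag2, Rtp3 for Hey1, Itga3 for Hey2, Pcdhb10 for Gja4, Disp2 for Gja5 and Plat for Sox17. The distance was 0.0435 for Notch1 and Zfp41 and 0.173 for Gja5 and Disp2. Efnb2 was next after Casc4 for Dll4, at 0.0929, and Unc5b was rank 3 for Jag2, at 0.174. These distances describe 6 libraries that share their scaling.

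Markers of the other cells that a lung suspension holds moved with the sort as well. In the edgeR fit 7 of 7 venous, 10 of 10 capillary and 4 of 6 lymphatic endothelial genes, 8 of 9 smooth muscle and pericyte genes, 4 of 7 fibroblast genes, 6 of 7 alveolar epithelial genes and 6 of 6 platelet genes were called higher in enriched cells. Of all genes in the fit, 21.5% were called higher and 19.2% lower. The fibroblast gene Pi16 was called lower, at a log2 fold change of -1.40. Airway genes divided into 1 higher, 1 lower and 4 neither. The 6 platelet genes summed to 293, 40.1 and 959 CPM in sham unsorted, depleted and enriched cells and to 50.5, 12.9 and 137 CPM in BLM cells, and the 7 alveolar epithelial genes to 1230, 152 and 952 CPM and to 322, 92.4 and 287 CPM. Capillary endothelial genes, with Gpihbp1 and Plvap among them, had a median BLM over sham ratio of -1.31 in unsorted and -0.66 in enriched cells. Venous endothelial genes had medians of -0.68 and -0.44, with Ackr1 alone at 3.14 and 4.70 and Vwf at 0.38 and 0.58. Ackr1 rests on 23 and 168 reads in sham and BLM unsorted cells and on 17 and 541 in enriched cells. The 10 smooth muscle and pericyte genes had a median BLM over sham ratio of -0.35 in enriched cells. Of these, 6 were below 0, from Cox4i2 at -1.68, and 4 above 0, up to Actg2 at 3.24. Actg2 rests there on 8 reads in sham and 95 in BLM. Cnn1 and Treml1 had 0 reads in BLM depleted cells. What part any of these cells had in the values of the 10 genes was not tested.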

How the data were processed

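The authors deposited 1 table of unnormalized counts of reads by gene. The submitters' processing notes name Trimmomatic 0.36, STAR 2.5.2b, featureCounts, Subread 1.5.2, DESeq2 and GRCm38; the annotation and the strand setting are not given in the sources used here. Of 49315 gene identifiers, 48970 were found in GENCODE M21 (GRCm38), which gave positions and exon lengths; 174 rows without a gene name kept their identifiers. No column of other samples was present.

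Counts were scaled by TMM (edgeR 4.0.16, R 4.3.3). Log2 ratios used a prior count of 0.5 reads and were kept where the higher library had 10 reads or more, and a gene was counted at a 2-fold difference. Intervals are 95% Clopper-Pearson intervals (scipy 1.17.1, numpy 2.4.6, pandas 2.3.3, Python 3.11.15; figures, matplotlib 3.10.9). With 1 library per condition, no p-value was computed for BLM against sham or for any ratio of 2 libraries. The edgeR quasi-likelihood test (filterByExpr, treatment as block, threshold 0.05, biological coefficient of variation 0.316, infinite prior degrees of freedom) used the 4 sorted libraries. Its p-values rest on a spread pooled across all genes in the fit, from 1 residual degree of freedom, and not on replicates. The approximate SE is the size of the log2 fold change divided by the square root of the F statistic of this test. DESeq2 1.42.0 was an alternative. Programs were tested on simulated data.

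The 10 genes and the lists, written from general knowledge, were chosen with earlier results of these data known. Besides the 10, named genes were all other receptors and ligands, the 3 largest and 3 smallest sort ratios and 2 largest and smallest BLM ratios per list, genes nearest in profile, and list examples; Adam10, Aph1a, Aph1b, Mib1, Numbl, Gja1, Unc5b, Lyz2, the leading and lowest smooth muscle and venous genes, and pairs for read ratios were chosen after values were seen. The fit without the BLM Lamp1-depleted library, which took in the unsorted libraries, was added after seeing the data.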

Additional observations from a re-analysis of the deposited data

Results flagged for a closer look

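For 3 of the 10 genes the ratio of BLM over sham had opposite signs in different kinds of library. The difference was not tested, since each condition was 1 library. By sign alone, all 16 pan-endothelial genes were below 0 in unsorted cells, and 8 of them were above 0 in enriched cells. In unsorted cells the log2 ratio was -0.42 for Notch1, -0.75 for Notch4 and -0.24 for Sox17, while in Lamp1-enriched cells it was 0.04, 0.04 and 0.70. In Lamp1-depleted cells it was -0.09 for Notch1, -0.19 for Notch4 and -0.24 for Sox17, again against 0.04, 0.04 and 0.70 in enriched cells. The Notch1 value in depleted cells became 0.07 with DESeq2 size factors. Relative to the pan-endothelial median, all 3 genes were above 0 in unsorted cells (0.59, 0.26 and 0.77) and in enriched cells (0.11, 0.11 and 0.77).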

How the results depend on the processing

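No paired analysis was possible because each group has 1 library, beyond the treatment block that the edgeR test already holds. A stricter fold changed the counts of genes most. At a log2 ratio of at least 3, enriched over depleted cells kept 3 of 10 genes in sham (Hey1, Gja4 and Sox17) and 5 in BLM (Dll4, Hey1, Gja4, Gja5 and Sox17), and depleted over unsorted cells 0 in both treatments. At a log2 ratio of at least 2, BLM depleted over unsorted cells kept 5. BLM enriched over unsorted cells and BLM over sham in unsorted, depleted and enriched cells kept 0 at 2 and at 3. With Pecam1 alone in place of the pan-endothelial median, the genes above the reference went from 2 to 9 (sham enriched over depleted), 4 to 9 (BLM), 6 to 1 (sham depleted over unsorted) and 6 to 1 (BLM). With Cdh5 alone, sham depleted over unsorted gave 2. With the capillary list, sham enriched over unsorted went from 2 to 10, BLM enriched over unsorted from 3 to 9, and BLM over sham in enriched cells from 6 to 10. Of 628 log2 ratios of the 10 genes under alternatives (scaling, prior count, read minimum, thinning), 5 changed sign and none did so from a 2-fold difference. All 5 were ratios of BLM over sham. With total counts only they were Gja4 in unsorted cells (-0.04) and Gja4 (-0.44) and Gja5 (-0.38) in depleted cells. With DESeq2 size factors they were Notch1 (0.07) and Hey1 (0.10) in depleted cells. A read minimum leaves each ratio as it is, and the largest shift from scaling was -0.72. Neither could reverse a 2-fold difference, so the absence of such a change there was fixed in advance. Scaling by totals alone moved all ratios by 0.56 (log2) in BLM enriched over depleted, -0.51 in BLM depleted over unsorted, -0.72 in depleted and -0.26 in unsorted BLM over sham cells. The edgeR test called 4422 genes higher and 3964 lower; total counts only gave 2872 and 1564, 64.74% higher against 52.73%. All 10 genes were called by the DESeq2 Wald test (3982 higher and 3424 lower, 34.2% of genes). They were also called with all genes of at least 1 read (4249 and 3345, 22.1%), with all 6 libraries (38.3%) and with thinned counts (42.1%). Depth limits Hey2, with 8 reads in BLM depleted cells.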
